A study of Homo sapiens with 30 samples.

Results

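H3K4me3 peaks that lay at the end of a gene and carried no H3K27ac peak were described in OCI-Ly1 cells treated with the histone demethylase inhibitor JIB-04. OCI-Ly1 is an established human line of diffuse large B-cell lymphoma, and JIB-04 is a small-molecule inhibitor of the Jumonji family of histone demethylases. A peak belonged to the set when it was listed for H3K4me3 on chromosomes 1 to 22 or X, was under 4000 bp long, lay within 1 kb of either end of a RefSeq gene, and overlapped no peak listed for H3K27ac by a single base. Of 21268 H3K4me3 peaks, 2239 met the rule. Another 10000 gene-end peaks under the same length limit overlapped an H3K27ac peak, and 2448 peaks of that length without H3K27ac lay away from gene ends. The 6 H3K4me3 libraries came from cells given 0.01% DMSO as vehicle, 150 nM JIB-04 or 500 nM JIB-04, with 2 libraries each. All groups were the same unmodified line, and the length of treatment was not given. Nothing in the labels says whether the libraries of a group came from separate cultures, so p-values measure only the spread between these libraries.

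H3K4me3 is written by COMPASS-type methyltransferases, the SET1 and MLL enzymes, and marks the starts of active genes and of many CpG-rich promoters that are poised or silent. It is removed by Jumonji demethylases of the KDM5 family, whereas LSD1-type enzymes act only on the lower methylation states of the same lysine. H3K27ac is deposited by p300 and CBP and accompanies active promoters and enhancers, so a promoter with H3K4me3 alone carries the methyl mark without the acetyl mark that usually goes with transcription. Promoters of developmental genes often carry H3K4me3 together with the repressive mark H3K27me3, which was not measured in these libraries.

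Reads inside H3K4me3 peaks numbered 9686420 to 12327122 per library. The spread within each group was close to counting noise, with a chi-square per degree of freedom of 1.12 between the DMSO libraries, 0.929 between those of 150 nM and 1.17 between those of 500 nM, where 1 is counting noise alone. The 150 nM libraries thus differed by less than sampling noise. A cross-group pair, replicate 1 of DMSO and replicate 1 of 150 nM, was as close at 0.952, so both 150 nM libraries stayed in as separate samples. All these values are over all tested peaks, where pairs made of 1 DMSO and 1 library of 500 nM stood at 7.27 to 8.47. Over the tested peaks of the set such pairs stood at 7.49 to 8.47. The label of the line held against its markers: all 8 B-cell genes checked, among them CD79A and PAX5, had an H3K4me3 and an H3K27ac peak at a gene end, at 55.13 to 481.32 CPM, counts scaled to the library's size, in DMSO. Of the 4 T-cell genes 3 had an H3K4me3 peak, at no more than 32.99 CPM, and all 4 had an H3K27ac peak. Of the 4 myeloid genes only CD14 had a peak, at 10.74 CPM, and that peak is in the set, while LYZ, CSF1R and MPO had none.

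The promoters below were chosen to show the letters under large rises at 500 nM (RBPMS2, SOCS6, SDC1), large falls (CHLSN-AS1, DUOX2, CA9) and a peak of high level (CTSH). Each is the 250 bases before the annotated gene start from RefSeq (GRCh38.p14), printed 5′ to 3′ on the gene's own strand, with CpG sites in capitals. All 7 lie wholly inside their H3K4me3 peak.
RBPMS2, chr15:64775590-64775839, minus strand: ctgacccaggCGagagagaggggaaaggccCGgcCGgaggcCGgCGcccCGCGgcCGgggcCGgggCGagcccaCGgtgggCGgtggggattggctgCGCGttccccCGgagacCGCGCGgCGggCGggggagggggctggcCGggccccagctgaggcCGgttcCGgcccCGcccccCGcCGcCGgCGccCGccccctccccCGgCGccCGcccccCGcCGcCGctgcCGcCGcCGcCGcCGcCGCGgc
SOCS6, chr18:70288795-70289044, plus strand: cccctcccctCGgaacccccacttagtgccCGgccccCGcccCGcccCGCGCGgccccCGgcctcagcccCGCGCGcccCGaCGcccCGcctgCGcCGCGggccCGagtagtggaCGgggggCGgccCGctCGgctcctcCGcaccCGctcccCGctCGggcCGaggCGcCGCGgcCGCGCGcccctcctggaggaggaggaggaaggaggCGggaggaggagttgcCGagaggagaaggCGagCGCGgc
SDC1, chr2:20225476-20225725, minus strand: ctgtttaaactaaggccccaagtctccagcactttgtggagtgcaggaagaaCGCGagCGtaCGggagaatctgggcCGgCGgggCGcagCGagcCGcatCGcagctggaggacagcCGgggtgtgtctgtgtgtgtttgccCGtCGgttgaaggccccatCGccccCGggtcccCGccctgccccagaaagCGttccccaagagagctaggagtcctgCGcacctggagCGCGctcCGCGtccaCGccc
CHLSN-AS1, chr7:1065481-1065730, plus strand: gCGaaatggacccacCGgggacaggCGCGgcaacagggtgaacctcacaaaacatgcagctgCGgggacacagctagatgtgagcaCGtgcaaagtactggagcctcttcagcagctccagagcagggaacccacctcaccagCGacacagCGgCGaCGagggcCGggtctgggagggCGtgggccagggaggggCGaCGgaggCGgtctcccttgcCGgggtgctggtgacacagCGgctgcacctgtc
DUOX2, chr15:45114173-45114422, minus strand: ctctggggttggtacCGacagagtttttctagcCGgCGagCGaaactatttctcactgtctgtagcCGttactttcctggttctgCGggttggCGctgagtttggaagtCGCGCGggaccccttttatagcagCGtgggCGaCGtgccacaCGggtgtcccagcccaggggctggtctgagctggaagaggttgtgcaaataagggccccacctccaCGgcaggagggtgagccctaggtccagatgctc
CA9, chr9:35673678-35673927, plus strand: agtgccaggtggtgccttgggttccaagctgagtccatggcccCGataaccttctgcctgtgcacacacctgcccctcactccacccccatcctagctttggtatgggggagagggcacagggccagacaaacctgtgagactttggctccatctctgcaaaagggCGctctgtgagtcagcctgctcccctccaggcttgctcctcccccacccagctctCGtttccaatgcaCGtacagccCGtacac
CTSH, chr15:78945047-78945296, minus strand: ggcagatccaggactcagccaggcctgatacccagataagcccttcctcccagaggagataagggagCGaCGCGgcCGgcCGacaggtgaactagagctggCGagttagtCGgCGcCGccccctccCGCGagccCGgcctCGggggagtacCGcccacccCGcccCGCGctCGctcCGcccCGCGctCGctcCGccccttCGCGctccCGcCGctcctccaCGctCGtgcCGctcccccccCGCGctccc

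The RBPMS2 promoter held 42 CpG sites in these 250 bases, SOCS6 held 38, CTSH 32 and SDC1 23. The promoters of the peaks that fell held fewer, with 17 at CHLSN-AS1, 15 at DUOX2 and 5 at CA9. Over 300 bases, from 250 before to 50 after the start, the G and C content was 85.33% at RBPMS2, 81.33% at SOCS6 and 67.67% at SDC1, 64.67% at CHLSN-AS1, 60.33% at DUOX2 and 62.00% at CA9, and 73.33% at CTSH.

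H3K4me3 at the peaks without H3K27ac was higher at 500 nM JIB-04 than in DMSO. Of all reads in H3K4me3 peaks these held 1.69% and 1.68% in the DMSO libraries, 1.74% and 1.71% with 150 nM, and 2.47% and 2.44% with 500 nM. Both 500 nM libraries thus lay above the other 4, and the mean rose from 1.69% ± 0.00814 (SD, n = 2) to 2.45% ± 0.0151 (SD, n = 2), a ratio of 1.46. The exact 2-sided permutation test over libraries gave p = 0.333, the smallest that 2 libraries against 2 allow. The gene-end peaks with H3K27ac held 71.58% of reads in DMSO and 71.57% at 500 nM. The median count per peak of the set was 41 and 34 in DMSO, 39 and 38 with 150 nM, and 71 and 57 with 500 nM. A gain at each cell and a gain in the number of cells that carry the mark cannot be told apart in these bulk libraries.

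**Figure D1:**
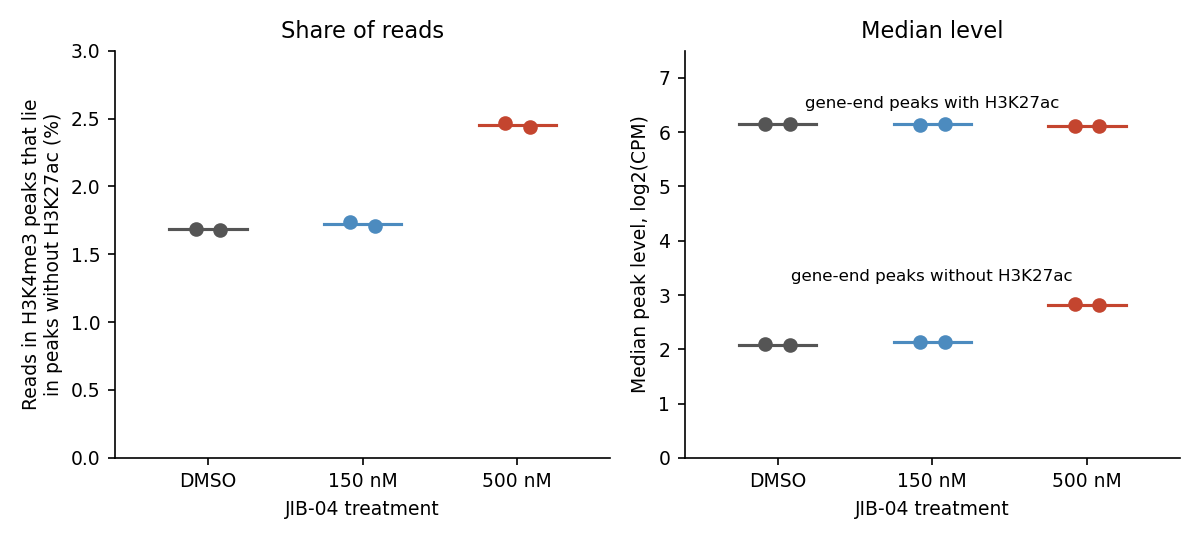
Left, percent of reads in H3K4me3 peaks that lay in gene-end peaks without H3K27ac, by treatment. Right, the median level of those peaks and of gene-end peaks with H3K27ac, in log2 CPM. Points are libraries and lines are means of 2. The 500 nM libraries reach 2.47% and 2.44%, above the 1.68% to 1.74% of the other 4, whereas the median of the peaks with H3K27ac lies between 6.11 and 6.15 in all 6.

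Peak by peak, edgeR's quasi-likelihood test with Benjamini-Hochberg adjustment over all 20402 tested H3K4me3 peaks called 1238 peaks of the set higher at 500 nM than in DMSO and 48 lower, at an adjusted p under 0.05. That is 58.7% and 2.27% of the 2110 members that passed the filter on low counts. Over all tested peaks 39.4% were called, 20.7% higher and 18.7% lower. The remaining 129 members were too low to test in this fit. Of the tested members, 253 passed the filter only through the 500 nM libraries, so they had to be high there, and 190 of those were called higher. The other 1857 had 1048 higher (56.4%) and 48 lower (2.58%), against 19.1% and 19.6% of the 19510 peaks of all kinds that passed without the 500 nM libraries. Without the filter, all 2239 entered, with 1271 higher and 46 lower, against 20.0% higher and 18.4% lower of all peaks. In CPM, both 500 nM libraries lay above both DMSO libraries at 1681 of the 2239 peaks (75.1%) and below both at 141 (6.30%), against 34.2% and 33.2% of all H3K4me3 peaks.

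The median log2 fold change was 0.61 over the tested members, −0.0063 over all tested peaks and −0.038 over the 9965 tested gene-end peaks with H3K27ac. Among peaks that passed the filter without the 500 nM libraries it was 0.52 over the 1857 members and −0.016 over all 19510. Of those peaks with H3K27ac 12.5% were higher and 21.0% lower. When libraries were scaled by the total count in peaks this became 16.0% and 13.5%, whereas the members kept 60.7% higher and 1.66% lower. The gap between the per-library median log2 CPM of the set and that of the peaks with H3K27ac was −4.06 and −4.07 in DMSO, −4.0 in both libraries of 150 nM, and −3.27 and −3.31 with 500 nM, with p = 0.333 in the exact permutation test, again the smallest possible. The DESeq2 Wald test called fewer members, 772 higher and 16 lower, against 9.80% and 7.25% of all tested peaks.

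The members were shorter and weaker than other gene-end peaks, so levels were matched. Their median length was 844 bp against 2104 bp, and their median level in DMSO was 4.45 against 32.64 CPM per kilobase. In bins of the mean count over the 6 libraries, the share of members called higher at 500 nM was 48.3% of 472 peaks under 20 counts, 55.7% of 544 between 20 and 50, and 63.9% of 413 between 50 and 100. It was 66.4% of 363 between 100 and 200, 62.6% of 243 between 200 and 400, and 66.7% of 75 at 400 or more. The gene-end peaks with H3K27ac ranged from 8.76% in the highest bin to 29.7% between 100 and 200. Peaks without H3K27ac away from gene ends ranged from 34.9% in the lowest bin to 66.2% between 200 and 400 with TMM scaling. With loess offsets, which remove the trend with abundance, 21.5% of the peaks away from gene ends were higher and 42.8% of the members, against 17.1% of all tested peaks.

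**Figure D2:**
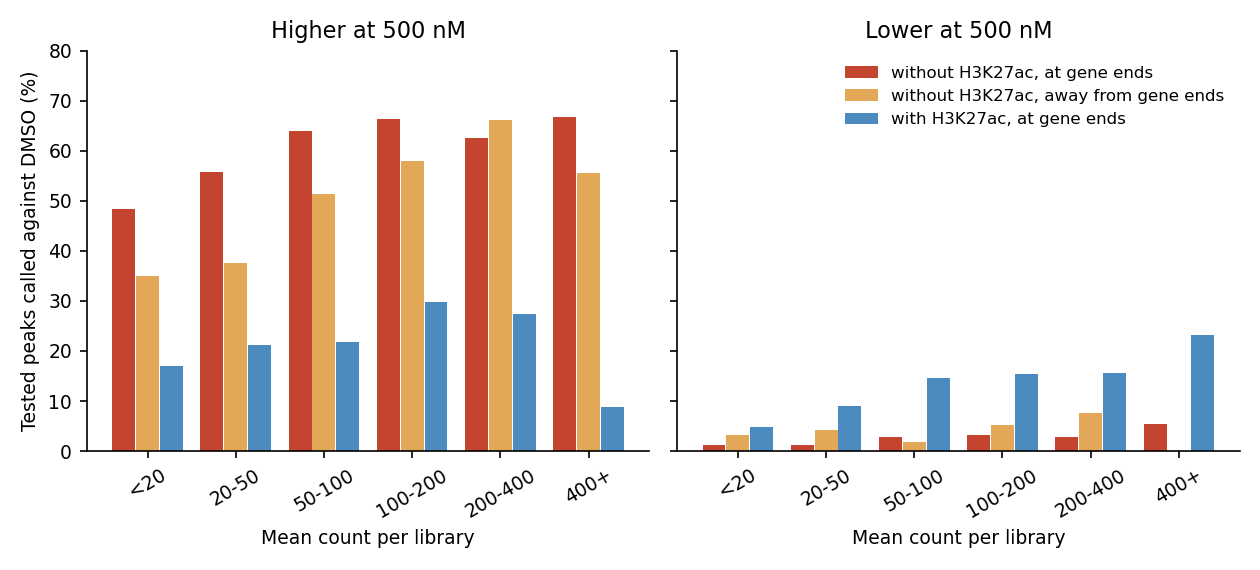
Percent of tested H3K4me3 peaks called higher (left) or lower (right) at 500 nM than in DMSO by edgeR, by mean count per library. Bars are gene-end peaks without H3K27ac, peaks without H3K27ac away from gene ends, and gene-end peaks with H3K27ac. The peaks without H3K27ac at gene ends range from 48.3% to 66.7% higher, and those with H3K27ac stay at or under 29.7%.

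The median log2 fold change of tested members was 0.68 between 50 and 100 counts and 0.22 at 400 or more. Under 20 counts, where 472 of 601 members were tested, it was 0.98, but 0.49 over the 230 that passed the filter without the 500 nM libraries. The bins rest on a mean that includes the 500 nM libraries. How the peak list was made decides which weak peaks entered it, and a peak listed because of the 500 nM libraries had to be high there. That was checked on the level in DMSO alone, a limit chosen after the data were seen. Of the 969 members with a mean DMSO count of 50 or more, 580 were higher at 500 nM (59.9%) and 36 lower, with a median of 0.39, against 12% higher of the 9476 such peaks with H3K27ac. These groups share the lower limit but not the level, with median DMSO counts of 128.5 and 822.25. At least 10 counts in both DMSO libraries were present at 1773 of the 2239 members, and both counts were under 10 at 313.

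At 150 nM no member was called against DMSO by edgeR, with a background of 0% of the 20402 tested peaks. At an unadjusted p under 0.05 there were 102 members, 4.83% of those tested, against 4.66% of all tested peaks, and DESeq2 also called 0 members, with 12 at an unadjusted p under 0.05. The median log2 fold change of the members was 0.034. The member with the smallest unadjusted p was a 291 bp peak near DLK2, a Notch-related membrane protein, at 0.082 and 0.098 CPM in DMSO, 0.448 and 1.40 with 150 nM, and 1.36 and 0.409 with 500 nM. Its DMSO level is that of 1 count per library.

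The comparison of the doses, which uses the same 500 nM libraries as the comparison with DMSO, called 1197 members higher at 500 nM than at 150 nM and 51 lower. That is 56.7% and 2.42% of the members tested, against 39.2% of all tested peaks called, 20.5% higher and 18.6% lower. The median log2 fold change of the members was 0.59. These values include the 253 members that passed the filter only through the 500 nM libraries and so had to be high there. Of the 969 members with a mean DMSO count of 50 or more, 558 were higher (57.6%) and 33 lower. Their median was 0.35.

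The largest rises among members with a mean count of at least 50 were at genes of varied roles. The peak over the start of RBPMS2, an RNA-binding protein of smooth muscle (chr15:64774661-64776287), had 1.80 and 1.18 CPM in DMSO, 1.52 and 1.77 with 150 nM, and 12.5 and 15.63 with 500 nM. Its log2 fold change against DMSO was 3.19 ± 0.22 (SE), with an adjusted p of 1.18e-18 by edgeR. At SOCS6, a member of the suppressor of cytokine signalling family (chr18:70288511-70290012), the values were 2.53 and 1.47 in DMSO, 2.15 and 2.23 with 150 nM, and 15.98 and 15.01 with 500 nM. At both peaks the 500 nM libraries stood apart, as the rule that chose them required, and the DMSO and 150 nM ranges overlapped.

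The peak shared by KLC4-AS1 and PTK7, a receptor-like pseudokinase of planar cell polarity (chr6:43076174-43077199), went from 1.71 and 1.77 CPM in DMSO and 2.15 and 1.58 at 150 nM to 10.88 and 10.83 at 500 nM. At SDC1, the heparan sulfate proteoglycan syndecan-1 that marks plasma cells (chr2:20223405-20225761), the levels were 3.02 and 2.55 in DMSO, 3.31 and 3.44 with 150 nM, and 15.22 and 19.1 with 500 nM. Further rises among the 8 were at SERPINE2, a secreted protease inhibitor, NRCAM, a neuronal adhesion molecule, and the uncharacterised LOC124902669, with log2 fold changes of 2.61, 2.61 and 2.55. BIN1, which shapes curved membranes, joined RBPMS2 and SOCS6 among the 3 largest rises from 150 to 500 nM, at 2.24 and 1.68 CPM against 12.92 and 15.22. In each of these peaks the lowest 500 nM library lay above the highest of the other 4. The rule that chose them required this against DMSO, or for BIN1 against 150 nM.

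The fallers were few but included large differences. At the start of CHLSN-AS1, a noncoding RNA gene antisense to CHLSN (chr7:1065353-1067283), H3K4me3 was 29.81 and 25.93 CPM in DMSO, 34.31 and 30.9 with 150 nM, and 4.08 and 2.55 with 500 nM. The log2 fold change was −3.04 ± 0.145 (SE), with an adjusted p of 1.08e-25 by edgeR. The peak between DUOX2, a hydrogen peroxide-forming oxidase, and DUOXA2, its maturation factor (chr15:45112997-45115386), fell from 26.38 and 25.24 to 7.40 and 8.27, with 27.05 and 24.1 at 150 nM. At CA9, a membrane carbonic anhydrase known for its induction by low oxygen (chr9:35673452-35676310), the values were 28.83 and 28.29 in DMSO, 36.01 and 29.59 with 150 nM, and 11.48 and 10.42 with 500 nM. These 3 were also the largest falls from 150 to 500 nM among members with a mean count of at least 50. Reads of overlapping or divergent genes cannot be assigned to either, since a peak has no strand.

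The 8 largest falls were taken among members with a mean count of at least 50 and no overlap of libraries. The other 5 of these 8 were at TRIOBP, an actin-binding protein, with a log2 fold change of −1.37, PDE4D, a cyclic AMP phosphodiesterase, with −1.12, RNU6-1084P with −1.07, SCART1 with −0.83 and LINC02137 with −0.81. TRIOBP went from 6.21 and 6.09 CPM in DMSO to 2.55 and 2.14, and LINC02137 from 18.45 and 16.21 to 10.2 and 9.6. By the rule that chose them, none of the 8 had a 500 nM library within the DMSO range. Among all 48 members called lower, and picked after their values were seen, was CD34, a stem cell surface protein, with −1.96.

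**Figure D3:**
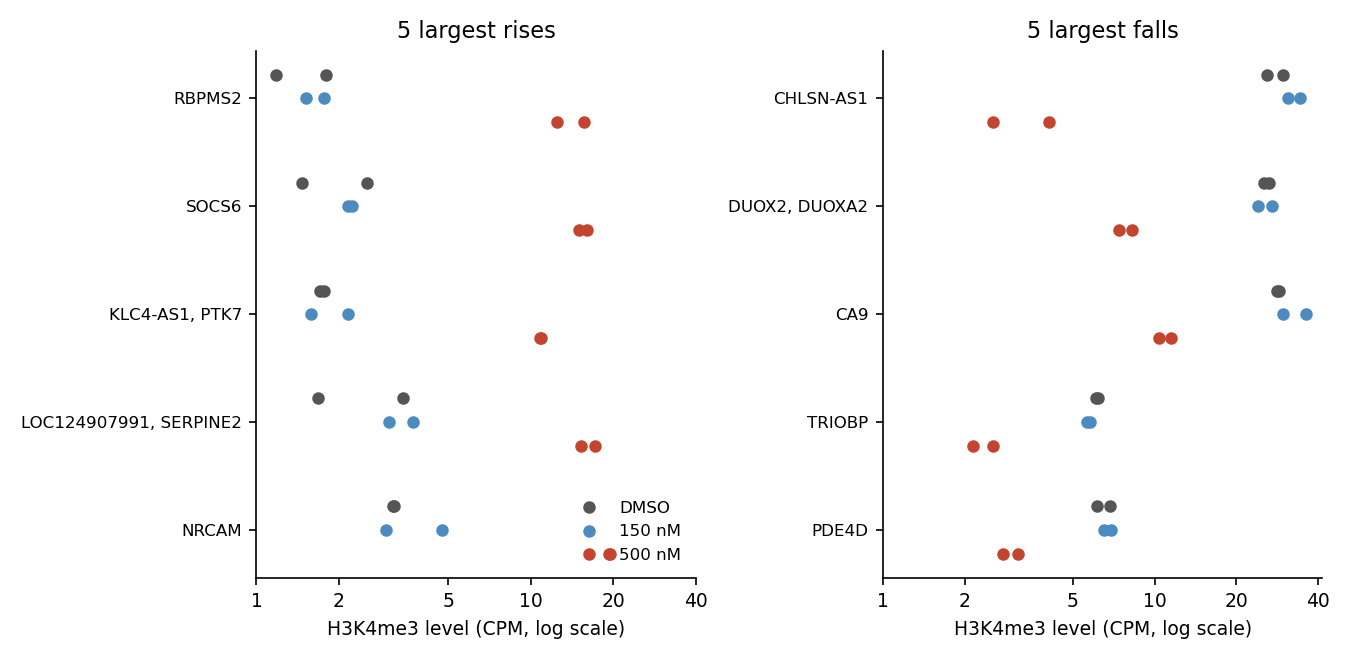
H3K4me3 level in CPM, on a log axis, of the 5 largest rises (left) and the 5 largest falls (right) at 500 nM among gene-end peaks without H3K27ac with a mean count of at least 50. Each point is a library. At RBPMS2 the 500 nM libraries reach 12.5 and 15.63, and at CHLSN-AS1 they drop to 4.08 and 2.55, while the 150 nM points lie with or near the DMSO points.

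Of the 5 members with the highest level in DMSO, 1 was called higher at 500 nM, 1 lower and 3 were not called. The highest level was at ADAM19, a membrane metalloprotease, whose peak (chr5:157573658-157576371, shared with LOC124901121) had 115.06 and 107.76 CPM in DMSO, 109.83 and 108.51 with 150 nM, and 117.33 and 119.59 with 500 nM. Its log2 fold change of 0.084 ± 0.040 (SE) was not called, with an adjusted p of 0.094 by edgeR, but it was called without DMSO replicate 1 (0.132, adjusted p = 0.0392), with the total count in peaks (0.118, adjusted p = 0.0151) and with loess offsets (0.143, adjusted p = 0.00336). CTSH, the lysosomal protease cathepsin H, had 67.37 and 69.94 in DMSO and 71.59 in both 500 nM libraries, and FADS3 of the fatty acid desaturase family had 63.94 and 69.05 against 68.19 and 66.59. Neither was called. CKB, the brain-type creatine kinase, was called higher with 64.92 and 64.14 against 71.59 and 73.63, a call that DESeq2 (adjusted p = 0.167) and the edgeR fit without 500 nM replicate 2 (adjusted p = 0.0560) did not make, and the peak of ABI3 and GNGT2 was called lower with 65.49 and 62.28 against 48.04 and 40.24.

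Ranked per kilobase, the highest members were ADAM19, CCDC184, IMPA1P1, DNAH7, a dynein of cilia, and GNG10, a G-protein subunit. CCDC184 rose from 47.85 and 46.95 to 54.92 and 58.11 CPM, and DNAH7 from 40.99 and 42.04 to 49.57 and 47.9. DESeq2 called neither of those 2, with adjusted p of 0.0589 and 0.116. IMPA1P1, a pseudogene, had a log2 fold change of 0.37, and GNG10, at 0.10, was not called, except with the total count in peaks (adjusted p = 0.0453).

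By position, the gene's strand was known for 1519 members, of which 1345 lay at a gene start and 174 only at the other end. Of the tested members at a start 64.0% were higher at 500 nM, and of those only at the other end 45.8%. The share was 58.7% over all tested members and 20.7% over all tested peaks. Members at a start had a median length of 952 bp and a median DMSO count of 45.5, those at the other end 608 bp and 24.5. Their median log2 fold changes were 0.68 and 0.54. Levels were not matched between these classes or the gene types below. The members had 2697 genes within 1 kb in all, and 134 genes had 2 or more members, so 227 peaks share a gene with another. Peaks near a protein-coding gene and no long noncoding RNA gene were higher in 64.2% of 1225 cases. With both kinds of gene the share was 75.9% of 249, with a long noncoding RNA gene and no protein-coding gene 45.0% of 407, and with pseudogenes only 37.6% of 165. The median DMSO counts of these 4 types were 46, 51.5, 26.5 and 22, and the median log2 fold changes 0.66, 0.82, 0.51 and 0.47. Members near immunoglobulin or T-cell receptor segments were few, 3 of 16 higher and 2 lower. By chromosome the share ran from 36.5% of 63 on chromosome X and 40.2% of 112 on chromosome 19 to 69.8% of 116 on chromosome 3.

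Developmental transcription factors, the HOX, SOX, FOX, TBX and related families, many of which lay down lineages in the embryo, were often higher at 500 nM. The list goes by family, so it also holds genes such as KLF2, FOXO4 and TBX21, the last of which is counted again among T-cell genes. Of 49 tested peaks 41 were higher and 1 was lower, with a median log2 fold change of 1.07. That is 83.7% higher, against 58.7% of the tested members and 20.7% of all tested peaks. With loess offsets 29 were higher. Of the 39 that passed the filter without the 500 nM libraries, 32 were higher. Gene-end peaks of the same list with H3K27ac were higher in 27 of 59 and lower in 8.

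The peaks of this list named here were picked after their values were seen. At HOXB7 the level rose from 4.25 and 5.40 CPM to 12.84 and 15.52, and at HOXA11 from 19.43 and 21.51 to 31.71 and 30.84. GSX2, a homeobox factor of the forebrain, went from 2.20 and 2.46 to 9.27 and 10.72. The strongest of these, DLX1, had 40.01 and 42.24 in DMSO and 52.20 and 52.08 at 500 nM, a log2 fold change of 0.35. FOXC1 was the only peak of the list called lower, with 6.94 and 8.74 against 5.70 and 5.31.

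Developmental signalling genes (WNT, FGF, BMP, NOTCH, semaphorin and ephrin families) had 34 of 50 tested peaks higher and 2 lower, with a median of 0.82. That is 68.0% higher, against 58.7% of the tested members and 20.7% of all tested peaks. Of the 44 that passed the filter without the 500 nM libraries, 28 were higher, and with loess offsets 26 of the 50. BMP6, a bone morphogenetic protein, rose from 8.82 and 6.97 CPM, with 9.05 and 9.12 at 150 nM, to 34.69 and 40.14. DLL1, a Notch ligand whose peak is shared with FAM120B, rose from 14.05 and 14.34, with 14.24 and 13.31 at 150 nM, to 41.49 and 44.73. The Notch ligand DLL4, picked after its values were seen, rose from 8.49 and 7.76 to 21.43 and 22.26, whereas the receptor gene NOTCH2 had 24.66 and 22.99 against 21.34 and 23.90 and was not called.

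Ion channel and neurotransmitter receptor genes had 28 of 41 tested peaks higher and 1 lower, with a median of 1.00. Over all tested peaks 20.7% were higher, and over the tested members 58.7%. Without the 13 that passed the filter only through the 500 nM libraries, 19 of 28 were higher, with a median of 0.92. With loess offsets 21 of the 41 were higher. CHRM4, a muscarinic acetylcholine receptor, rose from 22.78 and 24.75 CPM to 49.31 and 44.63, with 24.81 and 23.36 at 150 nM. Genes of collagens, laminins, integrins and related matrix proteins had 9 of 11 higher and 0 lower, among them ITGA6 (8.41 and 9.53 against 22.53 and 23.08) and FN1, fibronectin (26.54 and 22.69 against 40.47 and 39.42). Cadherins and protocadherins had 4 of 10 higher, among them CELSR1 at 8.25 and 7.56 against 12.67 and 15.73. CDH22, at 0.327 and 0.688 against 3.32 and 5.72, had 4 and 7 counts in DMSO and passed the filter only through the 500 nM libraries.

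**Figure D4:**
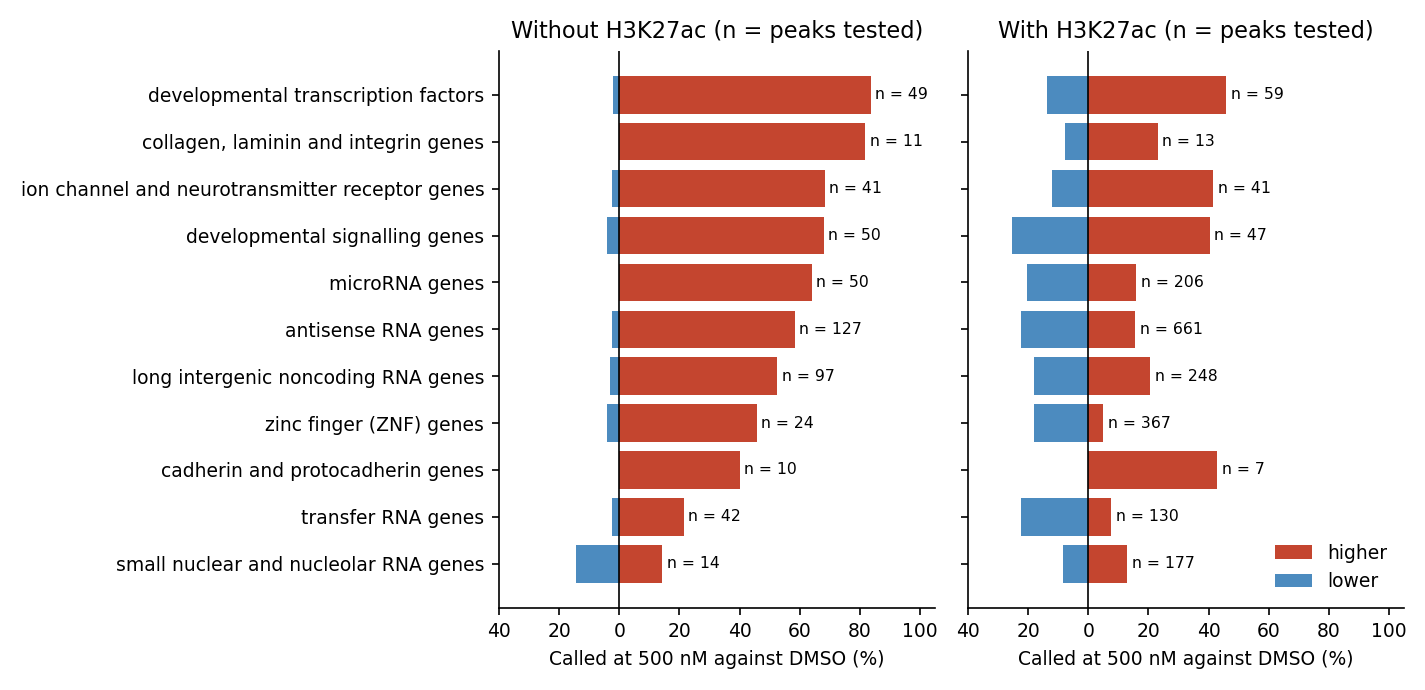
Percent of tested gene-end peaks called higher (right of 0) or lower (left of 0) at 500 nM than in DMSO, by gene list, without H3K27ac (left panel) and with H3K27ac (right panel), for lists with at least 10 tested peaks without H3K27ac. Developmental transcription factors stand at 83.7% higher without H3K27ac and 45.8% with it, and transfer RNA genes at 21.4% and 7.69%.

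Antisense RNA genes had 74 of 127 tested peaks higher and 3 lower, long intergenic noncoding RNA genes 51 of 97 and 3, and microRNA genes 32 of 50 and 0. These shares higher, 58.3%, 52.6% and 64.0%, lay near the 58.7% of all tested members, where all tested peaks had 20.7%. Among peaks that passed the filter without the 500 nM libraries, 62 of 110, 45 of 87 and 25 of 43 were higher. With loess offsets the counts higher and lower over all tested peaks of the lists were 56 and 6, 30 and 8, and 22 and 1. LINC00092, whose peak also lies inside ERCC6L2 away from its ends, went from 7.02 and 6.88 CPM to 19.98 and 20.83. LINC01664, shared with TMEM121B, went from 20.33 and 18.27 to 35.96 and 35.54, and RASSF8-AS1, shared with RASSF8, from 7.43 and 7.76 to 26.61 and 29.11. At FZD8, a Wnt receptor gene whose peak also spans MIR4683, the change was from 39.6 and 38.21 to 60.45 and 64.65. Picked after its values were seen, the peak at MIR34B and MIR34C, microRNAs known as targets of p53, rose from 7.59 and 7.96 to 17.51 and 18.28.

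Transfer RNA genes had 9 of 42 tested peaks higher (21.4%, near the 20.7% of all tested peaks) and 1 lower, with a median of 0.19, and small nuclear and nucleolar RNA genes 2 of 14 higher and 2 lower, with a median of 0.021. With loess offsets on abundance 2 of 42 and 0 of 14 were higher, and these medians turned to −0.030 and −0.13. The peak of TRI-TAT2-2, which also lies over the start of LARRPM and inside LINC00240 away from its ends, rose from 3.84 and 4.81 to 8.33 and 10.93 CPM. TRL-TAG2-1, at 29.97 and 27.01, reached 34.86 and 36.15, which DESeq2 did not call (adjusted p = 0.0666). The peak of RUNDC3A-AS1, listed here because RNU6-453P lies beside it, had 2.86 and 2.95 against 4.85 and 5.51, a call that DESeq2 did not make (adjusted p = 0.115). Zinc finger genes of the ZNF series were higher in 11 of 24 (6 with loess offsets) and lower in 1, with ZNF365 at 3.67 and 3.73 against 16.24 and 15.93 and ZNF853 at 1.31 and 1.18 against 7.99 and 7.76.

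Housekeeping genes hardly occur in the set. Of the cytosolic ribosomal protein genes only RPL13 had a member, a peak at its far end with 0.817 and 1.28 CPM in DMSO and 1.28 and 0.919 at 500 nM, and of the mitochondrial respiratory and ribosome genes only COX6B2, with 4.98 and 6.38 against 5.44 and 6.94. Neither was called. The histone genes H2BC26 and H2AC25, which neighbour each other, rose from 5.72 and 5.40 to 10.8 and 12.56 and from 4.98 and 3.73 to 9.35 and 8.99. Germline genes had 3 of 7 tested peaks higher, beside 58.7% of the tested members and 20.7% of all tested peaks. Of these, TEX15 had 0.327 and 0.786 against 4.08 and 5.62, and FKBP6 had 0.898 and 0.786 against 1.79 and 2.66. Both passed the filter only through the 500 nM libraries and had 4 to 11 counts in DMSO. Of the 3 germline peaks that passed without those libraries 1 was higher, and their median log2 fold change was 0.14. DESeq2 did not call FKBP6 (adjusted p = 0.116), nor did edgeR without DMSO replicate 2 (0.0514) or 500 nM replicate 2 (0.0803).

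Of the genes for Jumonji and other lysine demethylases, the family that JIB-04 inhibits, 1 had a member and 24 had a gene-end peak with H3K27ac. The member lies over the start of KDM5B (chr1:202806884-202808804), a demethylase of H3K4me3. Its levels were 39.77 and 38.01 CPM in DMSO, 41.84 and 35.83 with 150 nM, and 43.02 and 45.24 with 500 nM. The log2 fold change of 0.18 ± 0.067 (SE) had an adjusted p of 0.0312 by edgeR, but DESeq2 gave 0.311, and edgeR gave 0.0518, 0.165 and 0.171 without DMSO replicate 1, DMSO replicate 2 or 500 nM replicate 2. Of the 26 tested demethylase peaks with H3K27ac, 3 were higher and 8 lower, beside 12.5% and 21.0% of all gene-end peaks with H3K27ac.

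Of the 31 genes on a B-cell list none had a member, and 14 had a gene-end peak under 4000 bp with H3K27ac. Longer peaks are left out of both groups by the length limit. SDC1, which marks plasma cells, has a member and is not on that list. The 17 gene-end peaks of the list with H3K27ac were lower in 11 cases and higher in 1, where all gene-end peaks with H3K27ac were 21.0% lower and 12.5% higher. Genes of other lineages occurred in small numbers. TBX21, which directs T helper and natural killer cells, rose from 3.43 and 4.71 CPM to 10.37 and 9.29, while CD3G, at 16.74 and 20.53 against 20.41 and 17.97, was not called. Both myeloid members rose, TLR2 from 18.29 and 18.57 to 30.52 and 28.6 and CD14 from 11.76 and 9.72 to 17.77 and 16.54. Among epithelial and stromal genes 4 of 6 were higher, beside 58.7% of the tested members and 20.7% of all tested peaks. Of the 3 that passed the filter without the 500 nM libraries 2 were higher, among them PDGFRB at 2.04 and 1.47 against 5.02 and 3.57. PDGFRA, at 0.817 and 0.688 against 2.81 and 2.96, had 10 and 7 counts in DMSO and passed the filter only through the 500 nM libraries. Whether other cell types or a change of cell makeup took part was not tested.

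How far the nearest H3K27ac peak lay went with the share of rises. The median distance was 29116 bp. Of the 98 tested members within 1 kb of an H3K27ac peak, 20.4% were higher at 500 nM and 10.2% lower, which for rises is near the 20.7% of all tested peaks. From 1 to 5 kb 49.0% of 208 were higher, from 5 to 20 kb 55.7% of 548, from 20 to 100 kb 64.9% of 863, and over 100 kb 63.9% of 393. With a mean count of 50 or more the order was 32.1%, 55.1%, 59.9%, 67.4% and 74.3%, over 28, 98, 289, 488 and 191 peaks. With loess offsets on abundance, members within 1 kb were more often lower (20 of 98) than higher (14), while 48.6% of the 1256 members over 20 kb away were higher and 3.26% lower.

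**Figure D5:**
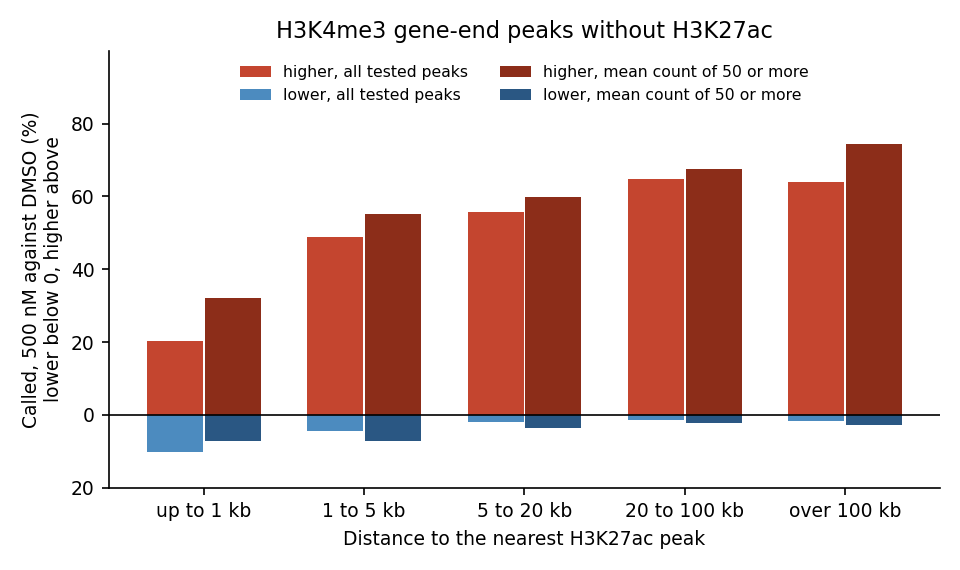
Percent of tested gene-end peaks without H3K27ac called higher (above 0) or lower (below 0) at 500 nM than in DMSO by edgeR, by distance to the nearest H3K27ac peak, for all tested peaks and for those with a mean count of 50 or more. The share higher is 20.4% up to 1 kb and 63.9% over 100 kb.

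H3K27ac itself was measured in the peaks nearest to the members. Within 10 kb of the members called higher, 208 H3K27ac peaks were tested, with 5 higher than DMSO at 500 nM and 0 lower, with a median log2 fold change of 0.075. Over all 54037 tested H3K27ac peaks the shares were 0.692% and 0.231%. Within 10 kb of members not called, 1 of 232 was higher and 1 lower, and near members called lower 0 of 22. The median count of these H3K27ac peaks was 21.33 to 38.17 per library.

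A RefSeq promoter of a gene at its start was matched for 1018 members. Counting each of the 1017 promoters once, 76.7% were CpG-rich, meaning at least 50% G and C and an observed to expected CpG ratio of at least 0.6 over 300 bases, as against 47.0% of all 27195 promoters of the table and 85.2% of those at gene-end peaks with H3K27ac. Among members the share was 83.5% of promoters with a peak called higher, 66.0% of those tested and not called, and 8 of 16 with a peak called lower. Seen the other way, 70.8% of 757 tested members with a CpG-rich promoter were higher at 500 nM and 47.5% of 223 with another promoter. Their median DMSO levels were 6.14 and 4.55 CPM per kilobase. At matched mean counts the shares were 76.7% of 133 and 45.1% of 71 between 20 and 50, 78.2% of 165 and 48.0% of 50 between 50 and 100, 69.5% of 174 and 57.1% of 42 between 100 and 200, and 63.9% of 155 and 5 of 14 between 200 and 400. Gene-end peaks with H3K27ac and a CpG-rich promoter were higher in 7 of 17, 15 of 32, 47.3% of 110 and 31.4% of 474 in the same bins.

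Short motifs were searched on both strands of the same 300 bases. CCGGAAG, the core bound by ETS factors, was in 6.39% of member promoters, 22.4% of promoters at peaks with H3K27ac and 10.7% of all. GGGCGG, a Sp1-type box, was in 72.8%, 72.9% and 44.7%, and CCAAT, the box bound by NF-Y, in 29.8%, 36.2% and 35.7%. TATAAA, the TBP-bound box, was in 5.80%, 4.68% and 12%. Of the promoters printed above, RBPMS2, SOCS6, SDC1 and CTSH held GGGCGG, RBPMS2 and CA9 held CCAAT, DUOX2 held TATAAA, and CHLSN-AS1 held none of the 4. A match is a run of letters and not a measured binding site.

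Peaks next to the limits of the rule are given for orientation. The longest member, at LINC01754, was 3997 bp and had 45.65 and 43.51 CPM in DMSO and 34.09 and 28.19 at 500 nM, and the next longer gene-end peak without H3K27ac, at CMIP, was 4256 bp, with 116.61 and 117.28 against 114.1 and 109.89. The member farthest from a gene end, at ARHGEF25, lay 999 bp away with 8.82 and 8.35 against 8.93 and 7.86, and MAFA, just outside at 1001 bp, had 1.47 and 1.96 against 3.74 and 3.47. The member nearest to an H3K27ac peak, at CES5A, lay 22 bp from it with 0.572 and 0.786 against 2.89 and 3.88. The peak at A2ML1-AS1, left out for its overlap, had 1.14 and 0.982 against 0.850 and 0.613.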

How the data were processed

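ChIP-seq libraries of H3K4me3 and H3K27ac, 12 of the 30 samples, were used. Input, H3K9me2 and H3K9me3 libraries were not analysed here. The authors deposited raw read counts per consensus peak for each mark, 1 column per library. Per the file headers they were counted with featureCounts 2.0.1 without strand, with a fraction of 0.2 of the read inside the peak, and a read may count in several peaks. The counting call in the headers sets the paired-read option, while per the labels' protocols reads were single and 50 bp long. Trim Galore 0.6.7, BWA 0.7.17-r1188, Picard 2.27.4, MACS2 2.2.7.1 and GRCh38 are named, without roles, in the submitters' processing notes. How consensus peaks were made is not given in the sources used here.

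Starts were raised by 1, since the deposited ones count from 0. Genes and promoters came from RefSeq GRCh38.p14. Whether a peak is exonic or intronic was not analysed. All 6 H3K4me3 libraries entered 1 fit in edgeR 4.0.16 (R 4.3.3) with filterByExpr by group, TMM, glmQLFit and glmQLFTest, Benjamini-Hochberg adjusted over all tested peaks at 0.05. Standard errors came from the F statistic. CPM is relative to reads in tested peaks, so a change common to all peaks is not measured, and PCR copies of a molecule cannot be recognised. On simulated counts of 20402 peaks with 200 changed by 1 on the log2 scale, the step recovered 81.5% for 500 nM against DMSO. The changed peaks were drawn from all tested peaks, with rises and falls in equal number. The median DMSO count is 293.5 over all H3K4me3 peaks and 37.5 over the members, so that rate need not hold for the members.

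Named peaks were the 8 largest rises and falls against DMSO with a mean count of at least 50 and no overlap of libraries, the 3 largest between doses, the smallest p at 150 nM, the 5 highest by level and per kilobase, 2 per gene list, and those at the limits of the rule. Some peaks the rule takes are not reported here. Members, gene lists and tests were chosen with earlier results of these data known. Replicate numbers were not used to pair the libraries in the main fit. The correlation of deviations between groups was 0.0107 to 0.0595. Since the spread within groups was near counting noise, that correlation cannot show whether the libraries were paired. Alternatives were other scalings, filters, thresholds and member rules, the replicate block, 4 libraries alone, DESeq2 1.42.0 and leaving out each library. Summing the 150 nM libraries and a minimum DMSO count were added after the data were seen.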

Additional observations from a re-analysis of the deposited data

How the results depend on the processing

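The count of members called at 500 nM against DMSO, 1286, and at 500 nM against 150 nM, 1248, stayed within 1.5 times under most alternatives and moved under 4. A refit on peaks with a mean count of at least 50 gave 748 and 724, DESeq2 gave 788 and 734, a minimum of 1 for the log2 fold change gave 662 and 628, and a mean DMSO count of at least 50, added after the data were seen, gave 616 and 591. These settings other than DESeq2 test or count fewer peaks by construction, and the cause was not tested for DESeq2. Loess offsets on abundance gave 903 higher and 101 lower against DMSO. The count at 150 nM stayed 0 under every alternative run. The replicate block gave 1310, 0 and 1263 calls and changed no count by over 1.5 times, and every one of the 1286 called members kept its direction with it, 1284 of them the call.

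The median log2 fold change of members, 0.612, and its difference from the peaks with H3K27ac, 0.650, kept their sign throughout. The median was 0.647 with the total count in peaks, and both values were 0.363 and 0.366 with loess offsets, 0.648 and 0.690 without a filter, 0.482 and 0.499 at a mean count of at least 50, 0.386 and 0.426 at a mean DMSO count of at least 50. They were 0.645 and 0.688 with the 150 nM libraries summed, 0.639 and 0.677 with no H3K27ac peak within 1 kb, and 0.682 and 0.723 with protein-coding genes only. Leaving out each library in turn gave 1072 to 1290 calls against DMSO and 967 to 1255 against 150 nM, and medians of 0.614 to 0.654 and 0.644 to 0.701. The rise in read share was 0.768 percentage points, and 0.631 over peaks with a mean count of at least 50.

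Over 61 named peaks, 824 of 853 values kept direction and call, 15 lost the call, 4 gained it and 10 changed sign. The sign changed only at 4 peaks that were not called. Over the fits that left out 1 library each, FADS3 ranged from −0.0372 to 0.0740, RPL13 from −0.202 to 0.435, COX6B2 from −0.0617 to 0.302 and ARHGEF25 from −0.131 to 0.0509. Loess offsets gave −0.538 at RPL13 and −0.0893 at COX6B2, and the total count in peaks gave 0.00636 at ARHGEF25. The causes were not tested. Members with fewer than 20 counts carry large counting error, and with 2 libraries per group no test over libraries can go below p = 0.333 in the exact permutation test.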
